A study of Danio rerio with 12 samples.

Results

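ADAM, ADAMTS and ADAMTS-like proteins form a family of related metalloproteinases and protease-like matrix proteins, and 36 of the 25281 genes in the expression tables of this adult zebrafish heart study carry a name that begins with adam. The members were chosen by that name alone: 15 were ADAM genes, 17 ADAMTS genes and 4 ADAMTS-like (adamtsl) genes, and no measured value was used. Earlier results of these data were known when the choice was made. RNA was sequenced from ventricles of adult fish of 6 months to 1 year of age, pooled over several hearts, and 10 libraries were available as count tables. In the injury experiment, hearts at 3 days post-amputation (dpa) came from 1 library of dusp6 mutants (dusp6 pt30a/pt30a) and 1 of WT fish (AB*), and uninjured hearts likewise from 1 library of each genotype. In what is called the foxm1 experiment here, 3 libraries of foxm1 mutants and 3 of WT (AB*) hearts were all taken at 3 dpa. The labels place them in experiments 2 to 4, with 1 library of each genotype in each. These numbers are used here as library numbers. Dusp6 is a phosphatase that limits ERK signalling, and Foxm1 is a transcription factor of the cell cycle. The labels name the foxm1 genotype of library 2 as homozygous for sa10708 and give a different second allele for libraries 3 and 4, whereas the methods describe homozygous sa10708 mutants. Hearts of dusp6 mutant and WT fish at 7 dpa were represented by a group mean of the authors alone.

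ADAM proteins are membrane proteins with a metalloproteinase and a disintegrin domain, and many of them cut the outer part of other membrane proteins, a step called shedding, which releases growth factors and cytokines or starts receptor signalling. ADAMTS proteins are secreted, carry thrombospondin repeats and mostly act on the extracellular matrix, where they trim procollagens, versican and other proteoglycans. ADAMTS-like proteins share the thrombospondin repeats but lack the protease domain, and those studied in mammals bind fibrillin microfibrils. In mammalian hearts members of these families are known for roles in valve formation, Notch and neuregulin signalling and the turnover of the matrix after injury.

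All 36 members had reads in at least 1 library, and their levels spanned several orders of magnitude. On the TPM scale (a share of all transcripts that corrects for gene length and so allows different genes to be compared), the highest mean levels over the 10 libraries were those of adam10a at 51.9 TPM, adam8a at 43.8, adam8b at 37.1, adam9 at 28.5 and adamts15a at 27.7. adam10a is a zebrafish counterpart of ADAM10, the protease that sheds Notch receptors. It ranged between 19.04 and 68.1 TPM, whereas adam8a ranged between 0.747 and 86.1 TPM and was the member that differed most in level between libraries. At the low end, adam22, adamts17, adamts16, adamts18 and adamts13 averaged under 0.1 TPM, at 0.0938, 0.0728, 0.0375, 0.0227 and 0.0041 TPM. adamts13, whose mammalian counterpart cleaves von Willebrand factor, never exceeded 15 reads in a library.

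On the TPM scale, the members together made up a larger part of the transcripts in injured hearts. Their summed level was 264 TPM in dusp6 mutant and 431 TPM in WT hearts at 3 dpa, against 171 TPM in dusp6 mutant and 168 TPM in WT uninjured hearts. adam8a alone made up 7.84% of that sum in dusp6 mutant and 19.98% in WT hearts at 3 dpa, against 0.531% in dusp6 mutant and 0.445% in WT uninjured hearts. In the foxm1 experiment the sums were 390, 357 and 386 TPM in mutant hearts and 407, 408 and 383 TPM in WT hearts, so they overlapped between the genotypes.

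Reads in introns made up much of the count of some members. Over the injury experiment, introns held 98.7% of the reads of adamts17, 97.2% of adamts16, 87.1% of adam22, 85.1% of adamts13, 83.2% of adam23a and 64.9% of adam11, and only 1.39% of adam10a and 2.00% of adam8a. All reads in a gene were counted, and whether strand was used in counting is not given in the sources used here. Uniquely mapped reads were the lowest share for adamtsl5 (59.0%), adam10b (77.3%), adamts10 (77.95%) and adamtsl3 (83.8%), so the counts of these genes may hold reads shared with similar sequences.

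Depth was between 54229254 and 67236702 reads in genes in the injury experiment and between 17654534 and 21245883 reads in the foxm1 experiment. dusp6 and foxm1 transcript levels do not test the labels, since a mutant allele can leave the transcript in place: foxm1 had 12.7, 14.6 and 12.5 CPM (a share of the reads in genes, scaled to be comparable between libraries) in foxm1 mutant and 10.4, 10.3 and 12.2 CPM in WT hearts, and dusp6 had 338 CPM in dusp6 mutant and 235 CPM in WT hearts at 3 dpa. WT libraries 2 and 3 of the foxm1 experiment stood apart: fkbp5, a glucocorticoid-induced gene, had 111, 187 and 175 CPM in the mutant libraries, against 1189, 1529 and 116 CPM in WT libraries 2, 3 and 4. Defining markers of cardiomyocytes, epicardium and fibroblasts, macrophages, neutrophils, endothelium, smooth muscle and erythrocytes were above 0 in every library.

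At 3 dpa, adam8a, adamtsl7, adam28, adamts15b_1 and adamts12 were many-fold higher than in uninjured hearts, and adam19a, adamts14, adamts2, adamts6 and adam8b were higher by smaller factors. adamts16, adam23a and adam19b were lower, 2.24-fold, 1.97-fold and 1.86-fold. Levels of 1 gene were compared between libraries in CPM scaled by the trimmed mean of M-values (TMM), and fold changes are given as log2 of 3 dpa over uninjured ± standard error (SE), with 2 libraries in each state. The 2 libraries of a state differ in genotype, so the spread used by the test includes any difference between dusp6 mutant and WT hearts. A gene counted as called when its adjusted p did not exceed 0.01 and its log2 fold change reached 0.59 in either direction. By edgeR's quasi-likelihood test 0 of the 36 members were called, as were 0% of the 20408 genes tested in either direction. The lowest adjusted p in this test was 0.0674, shared by adam8a and adamtsl7 with the lowest of all genes. At an unadjusted p under 0.05, 14 members were higher and 3 lower, against 13.6% higher and 7.38% lower among all genes tested. By the same rule, DESeq2's Wald test and edgeR's likelihood ratio test each called the same 8 members higher (adam8a, adamtsl7, adam28, adamts15b_1, adamts12, adam19a, adamts2 and adam8b) and 0 lower. Over all genes the share called by DESeq2 was 6.15% higher and 1.31% lower, whereas the share called by the likelihood ratio test was 5.50% higher and 0.755% lower. Relaxing the adjusted p to 0.1 in the quasi-likelihood test called 6 members higher, against 3.82% of all genes.

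The median log2 fold change was 0.57 over the 36 members and -0.00 over all genes tested, and 24 members had a positive value, against 49.6% of all genes. In 20 members both libraries at 3 dpa lay above both uninjured libraries, and in 5 both lay below, against 28.0% and 27.7% of all genes tested. A log2 fold change of at least 0.59 was found in 18 members and a value of at most -0.59 in 4, against 22.9% and 16.9% of all genes. Without the dusp6 mutant library at 3 dpa, the quasi-likelihood test called adam8a, adamtsl7 and adamts12 higher (adjusted p = 0.00865, 0.00926 and 0.00976), when 0.789% of all genes were called higher. That fit has a single 3 dpa library, which is assumed to vary like the 2 uninjured libraries that alone give the spread. Over all alternatives the adjusted p reached 0.362 for adam8a, 0.330 for adamtsl7 and 0.386 for adamts12.

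**Figure D1:**
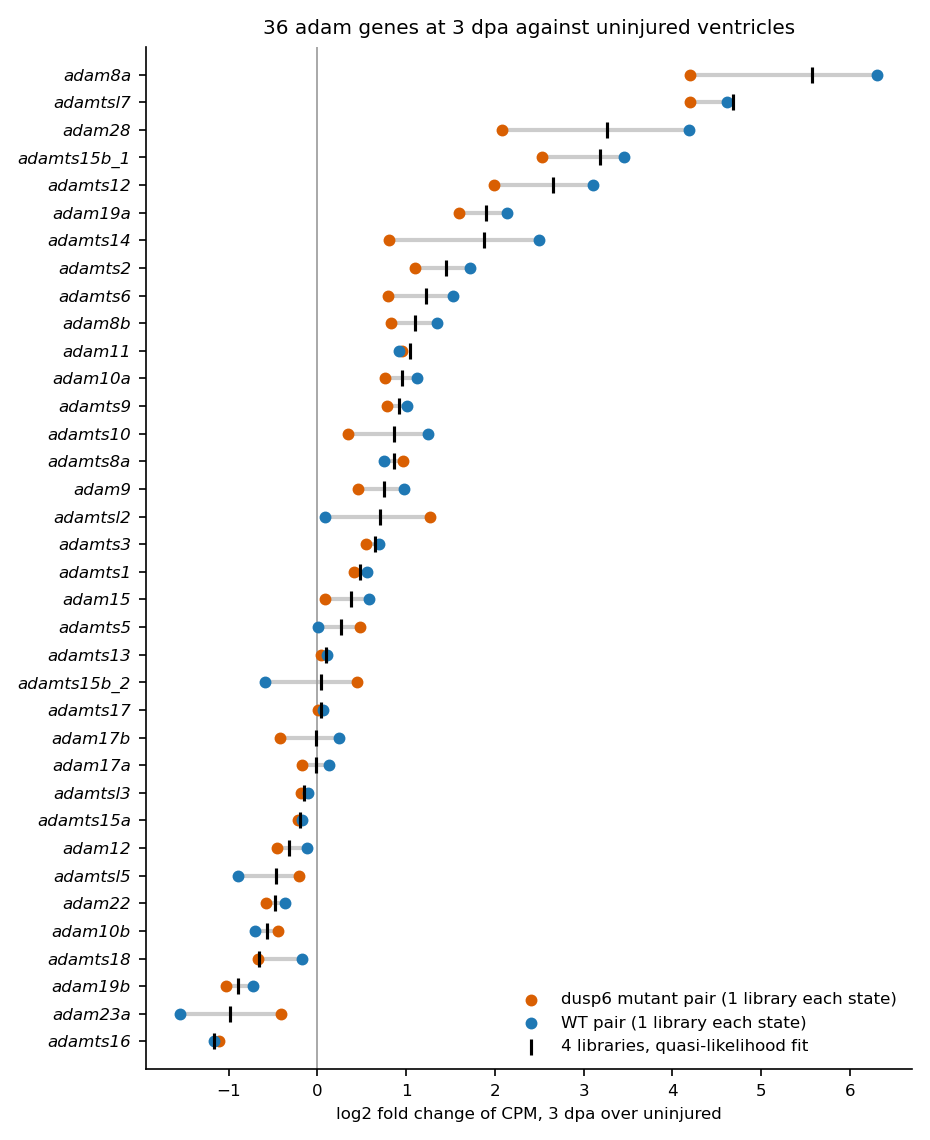
Log2 fold change of CPM, 3 dpa over uninjured (horizontal axis), for the 36 members (vertical axis, ordered by the fitted value). Orange points are the dusp6 mutant pair and blue points the WT pair of libraries, grey lines join them, and black ticks are the edgeR fit to all 4 libraries. adam8a at 5.57 and adamtsl7 at 4.69 stand at the top, and adamts16 at -1.17 at the bottom.

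The proteolytic ADAMs other than ADAM10 and ADAM17 counterparts held the highest fold change and also a clearly negative one. adam8a (GRCz11 chr13:24671481-24679636, plus strand) is a counterpart of ADAM8, which in mammals is a protease of leukocytes and other cells at sites of inflammation. It had 38.9 CPM in dusp6 mutant and 132 CPM in WT hearts at 3 dpa, against 2.03 CPM in dusp6 mutant and 1.57 CPM in WT uninjured hearts, a log2 fold change of 5.57 ± 0.71 (edgeR quasi-likelihood adjusted p = 0.0674; DESeq2 adjusted p = 2.61e-18). The groups were far apart, and the level at 3 dpa was more than 3 times as high in WT as in dusp6 mutant hearts. Its paralogue adam8b was already well expressed in uninjured hearts. It had 88.1 and 112 CPM in dusp6 mutant and WT hearts at 3 dpa, against 49.4 and 43.8 CPM in dusp6 mutant and WT uninjured hearts, a log2 fold change of 1.102 ± 0.22 (adjusted p = 0.101 by quasi-likelihood and 0.00341 by DESeq2).

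adam28, whose human counterpart is known from lymphocytes, had 3.94 CPM in dusp6 mutant and 7.16 CPM in WT hearts at 3 dpa, against 0.854 CPM in dusp6 mutant and 0.298 CPM in WT uninjured hearts. The groups did not overlap and the log2 fold change was 3.27 ± 0.66 (adjusted p = 0.1001 by quasi-likelihood and 2.23e-05 by DESeq2), but the uninjured level of the WT library rested on 18 reads. adam19a and adam19b are paralogues of ADAM19, a protease that sheds neuregulin in mammals and takes part in heart valve formation in mice. Their log2 fold changes had opposite signs. adam19a had 10.4 and 11.9 CPM in dusp6 mutant and WT hearts at 3 dpa, against 3.35 and 2.63 CPM in dusp6 mutant and WT uninjured hearts, a log2 fold change of 1.90 ± 0.28 (adjusted p = 0.0705 by quasi-likelihood and 3.52e-06 by DESeq2). adam19b had 34.95 and 32.01 CPM in dusp6 mutant and WT hearts at 3 dpa, against 71.6 and 53.0 CPM in dusp6 mutant and WT uninjured hearts, a log2 fold change of -0.90 ± 0.23 (adjusted p = 0.136 by quasi-likelihood and 0.0326 by DESeq2). Both members of the pair had separated groups, and neither adam19b value passed the threshold of 0.01. Of the other members of this class, adam9 had 75.2 and 118 CPM at 3 dpa in dusp6 mutant and WT hearts, against 54.8 and 59.8 CPM in dusp6 mutant and WT uninjured hearts (log2 fold change 0.75 ± 0.28). Introns held 50.3% of the adam9 reads in the injury experiment, and over exon reads its log2 fold change was 0.49. The fold changes of adam15 and adam12 were 0.38 ± 0.31 and -0.32 ± 0.32, and the groups of both overlapped.

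**Figure D2:**
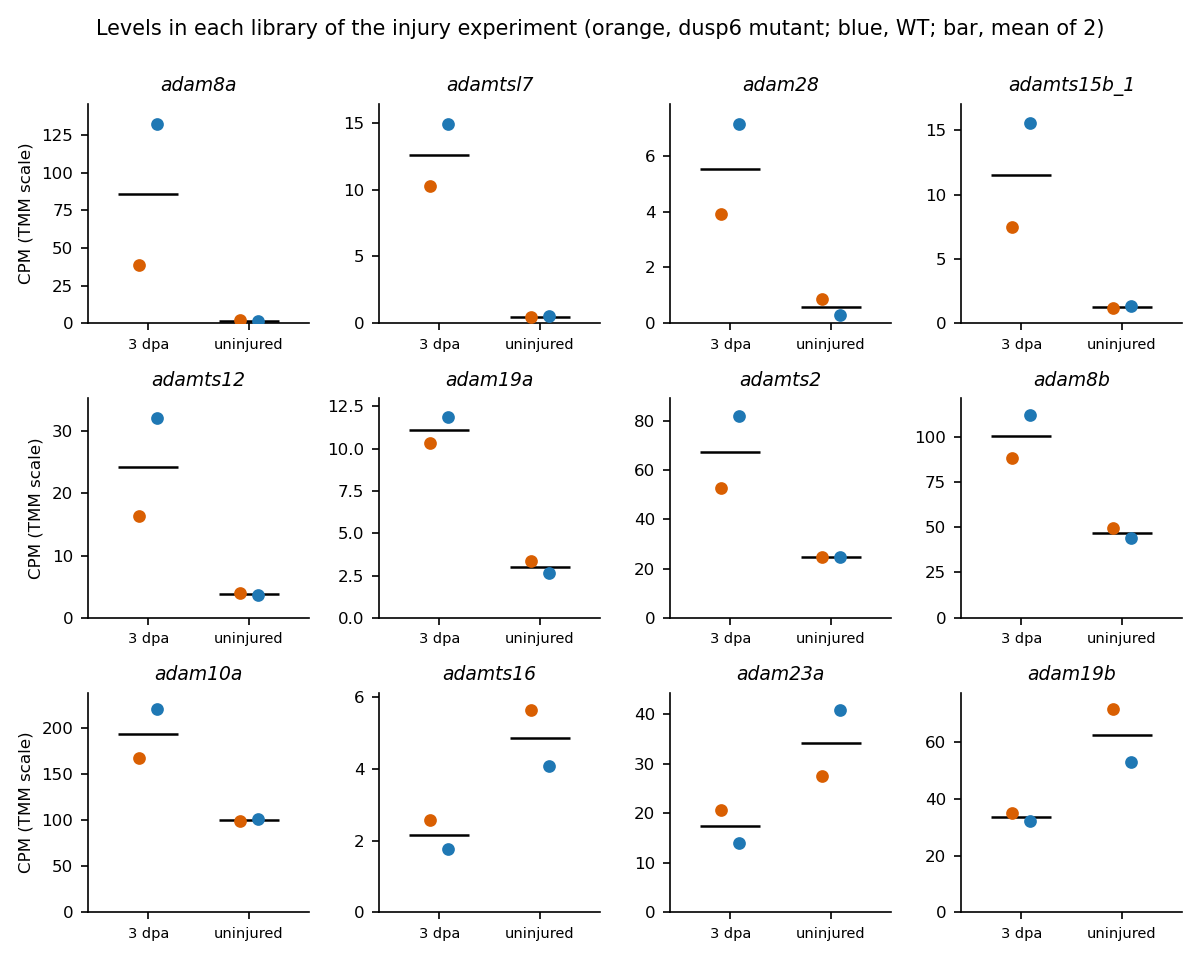
CPM on the TMM scale (vertical axis, from 0) in each of the 4 libraries of the injury experiment for 12 members, with 3 dpa left of uninjured. Orange points are dusp6 mutant and blue points WT libraries, and bars are means of 2. adam8a, at 38.9 and 132 CPM at 3 dpa, lies near the axis in uninjured hearts, while adam19b, at 34.95 and 32.01 CPM at 3 dpa, lies below its uninjured levels.

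The sheddase class, the counterparts of ADAM10 and of ADAM17 (the enzyme that releases tumour necrosis factor and ligands of the epidermal growth factor receptor), differed within itself. adam10a had 168 CPM in dusp6 mutant and 221 CPM in WT hearts at 3 dpa, against 99.0 and 102 CPM in dusp6 mutant and WT uninjured hearts, a log2 fold change of 0.96 ± 0.24 (adjusted p = 0.134 by quasi-likelihood and 0.0144 by DESeq2). All 10 libraries were also put in 1 fit. Each group of the injury experiment has 1 library there, so the spread comes from the foxm1 experiment alone. In that fit adam10a joined the 8 members named above (adjusted p = 0.00118), when 9.12% of all genes were called higher and 4.47% lower. Its paralogue adam10b had a negative value, with 13.4 and 10.2 CPM in dusp6 mutant and WT hearts at 3 dpa, against 18.2 and 16.6 CPM in dusp6 mutant and WT uninjured hearts, a log2 fold change of -0.56 ± 0.24 (adjusted p = 0.262, quasi-likelihood). The difference between paralogues was not tested. adam17a and adam17b had log2 fold changes of -0.02 ± 0.20 and -0.01 ± 0.40, and their groups overlapped.

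ADAM11, ADAM22 and ADAM23 are known in mammals to lack an active protease site and are best known from neurons. In these hearts adam23a had 20.7 and 13.96 CPM in dusp6 mutant and WT libraries at 3 dpa, against 27.5 and 40.8 CPM in dusp6 mutant and WT uninjured libraries, a log2 fold change of -0.98 ± 0.31 (adjusted p = 0.179, quasi-likelihood). adam22 had 2.65 and 3.25 CPM in dusp6 mutant and WT libraries at 3 dpa, against 4.02 and 4.22 CPM in dusp6 mutant and WT uninjured libraries, a log2 fold change of -0.48 ± 0.31 (adjusted p = 0.438, quasi-likelihood). Most reads of both genes lay in introns. With exon reads alone the values became -0.83 for adam23a and -0.23 for adam22, and on both TPM scales adam22 was close to 0 and positive (0.01 and 0.07). Those scales add 1 or 0.1 TPM before log2, and adam22 lay between 0.108 and 0.169 TPM in these libraries. The added 1 TPM thus holds its value near 0. The remaining gene of this class, adam11, was at 0.954 and 1.56 CPM in dusp6 mutant and WT hearts at 3 dpa, against 0.445 and 0.777 CPM in dusp6 mutant and WT uninjured hearts. Its log2 fold change was 1.04 ± 0.53 over all reads and 3.49 over exon reads, and neither passed the test (adjusted p = 0.339 and 0.188, quasi-likelihood). In uninjured hearts adam11 had 25 reads in the dusp6 mutant and 47 in the WT library, 100% and 87.2% of them in introns. The exon value thus rested on almost no uninjured reads, and its size is not a reliable measure.

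Among the secreted proteases, all 3 procollagen N-proteinases, which remove the amino-terminal propeptide of fibrillar collagens, lay higher at 3 dpa with separated groups. Of all genes tested, 28.0% did so. adamts2 had 52.8 CPM in dusp6 mutant and 82.1 CPM in WT hearts at 3 dpa, against 24.6 and 24.8 CPM in dusp6 mutant and WT uninjured hearts, a log2 fold change of 1.45 ± 0.27 (adjusted p = 0.0904 by quasi-likelihood and 0.000733 by DESeq2). adamts14 had 1.35 and 2.98 CPM in dusp6 mutant and WT hearts at 3 dpa, against 0.730 and 0.446 CPM in dusp6 mutant and WT uninjured hearts, a log2 fold change of 1.88 ± 0.58 (adjusted p = 0.171 by quasi-likelihood and 0.0464 by DESeq2). Its uninjured levels rested on 41 reads in the dusp6 mutant and 27 in the WT library. Introns held 52.3% of its reads in the injury experiment, and over exon reads its log2 fold change was 1.73. The last of them, adamts3, had a log2 fold change of 0.65 ± 0.39. Introns held 63.1% of the adamts3 reads in the injury experiment, and over exon reads its log2 fold change was 0.81.

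adamts12 (GRCz11 chr5:8832299-8910703, minus strand), whose mammalian counterpart cleaves cartilage oligomeric matrix protein, had 16.3 CPM in dusp6 mutant and 32.2 CPM in WT hearts at 3 dpa, against 4.02 CPM in dusp6 mutant and 3.65 CPM in WT uninjured hearts. The log2 fold change was 2.66 ± 0.39 (adjusted p = 0.0705 by quasi-likelihood and 1.31e-07 by DESeq2) and was 3.26 over exon reads. The groups were well separated, and the genotypes were close to each other in uninjured hearts but apart at 3 dpa.

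The ADAMTS genes related to cleavage of versican and aggrecan, the large proteoglycans of loose matrix, numbered 7. Of these, 6 had a positive log2 fold change, against 49.6% of all genes tested. In 4 the groups were separated with 3 dpa higher, against 28.0% of all genes tested. The highest value of the 7 was that of adamts15b_1 (GRCz11 chr15:17603488-17619306, minus strand). It had 7.51 CPM in dusp6 mutant and 15.5 CPM in WT hearts at 3 dpa, against 1.21 CPM in dusp6 mutant and 1.32 CPM in WT uninjured hearts, a log2 fold change of 3.18 ± 0.45 (adjusted p = 0.0681 by quasi-likelihood and 1.00e-08 by DESeq2). Its neighbour adamts15b_2 (GRCz11 chr15:17621375-17652807, plus strand) lay 2068 bases away, with the genes running in opposite directions from that gap. adamts15b_2 had 34.4 and 15.2 CPM in dusp6 mutant and WT hearts at 3 dpa, against 25.2 and 22.9 CPM in dusp6 mutant and WT uninjured hearts, so its groups overlapped (log2 fold change 0.04 ± 0.41).

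The gene reference used for symbols gives the ID of adamts15b_1 as ADAMTS15 and that of adamts15b_2 as ADAMTS8, and the same arrangement stood on chromosome 5, where adamts8a (GRCz11 chr5:30155834-30176970, minus strand) and adamts15a (GRCz11 chr5:30179010-30209068, plus strand) were 2039 bases apart and also ran outward. There the gene named after ADAMTS8 had the higher fold change: adamts8a had 29.3 and 26.2 CPM in dusp6 mutant and WT hearts at 3 dpa, against 14.99 and 15.5 CPM in dusp6 mutant and WT uninjured hearts, a log2 fold change of 0.86 ± 0.19 (adjusted p = 0.111 by quasi-likelihood). adamts15a had 25.8 and 40.7 CPM in dusp6 mutant and WT hearts at 3 dpa, against 29.9 and 46.0 CPM in dusp6 mutant and WT uninjured hearts (log2 fold change -0.19 ± 0.33). At both places 1 gene of the pair had separated groups and the other did not, and it was the gene matched to ADAMTS15 on chromosome 15 and the gene matched to ADAMTS8 on chromosome 5. The other pair of neighbours, adamts1 and adamts5, lay 10621 bases apart on chromosome 1 on the same strand, with log2 fold changes of 0.48 ± 0.36 and 0.27 ± 0.37. adamts9, which in mammals also acts in the cell's secretory pathway, had a log2 fold change of 0.92 ± 0.31 with separated groups.

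Of the remaining ADAMTS genes, adamts6, which in mice is needed for heart development, had 4.28 and 6.27 CPM in dusp6 mutant and WT hearts at 3 dpa, against 2.42 and 2.10 CPM in dusp6 mutant and WT uninjured hearts, a log2 fold change of 1.22 ± 0.35 (adjusted p = 0.152 by quasi-likelihood and 0.0358 by DESeq2). Introns held 55.8% of the adamts6 reads in the injury experiment, and over exon reads its log2 fold change was 1.18. adamts16 had 2.57 and 1.78 CPM in dusp6 mutant and WT hearts at 3 dpa, against 5.64 and 4.1 CPM in dusp6 mutant and WT uninjured hearts, a log2 fold change of -1.17 ± 0.37 (adjusted p = 0.179 by quasi-likelihood and 0.0608 by DESeq2). Nearly all reads of adamts16 lay in introns, and it did not pass the filter when exon reads alone were counted. adamts10 had a log2 fold change of 0.87 ± 0.36, while adamts17, adamts18 and adamts13 had 0.04 ± 0.28, -0.65 ± 0.70 and 0.10 ± 0.67.

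The ADAMTS-like genes were led by adamtsl7 (GRCz11 chr1:21576674-21599219, minus strand), which had 10.3 CPM in dusp6 mutant and 14.9 CPM in WT hearts at 3 dpa, against 0.463 CPM in dusp6 mutant and 0.513 CPM in WT uninjured hearts. The uninjured values rested on 26 and 31 reads. Its log2 fold change was 4.69 ± 0.35 (adjusted p = 0.0674 by quasi-likelihood and 7.30e-24 by DESeq2), and of the members it had the lowest adjusted p by DESeq2. The other 3 were smaller: adamtsl2, which in mammals binds fibrillin and latent transforming growth factor-binding proteins, had 0.71 ± 0.43, adamtsl3 -0.15 ± 0.31 and adamtsl5 -0.46 ± 0.43.

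The difference between states was larger in the WT pair than in the dusp6 mutant pair for most of the members that were higher at 3 dpa. adam8a was 18.3-fold higher in the dusp6 mutant pair and 79.3-fold higher in the WT pair, adam28 4.23-fold and 18.3-fold, adamts14 1.75-fold and 5.63-fold, and adamts12 3.99-fold and 8.60-fold, each fold computed after adding 0.1 CPM. adamtsl7 was nearer to even, at 18.4-fold in the dusp6 mutant and 24.6-fold in the WT pair. The log2 fold change was larger in size in WT for 24 of the 36 members, against 72.5% of all genes tested, so the members were near the background in this respect. Of the 23 members positive in both genotypes, 19 were larger in WT. Among all genes tested, 7294 (35.7%) were positive in both and 5511 (27.0%) were also larger in WT. Most such genes were thus larger in WT, as the members were. Direction was shared in most: 23 members were positive and 10 negative in both genotypes, against 35.7% and 36.7% of all genes tested. In 14 members the value was at least 0.59 in both, against 14.0% of all genes. With 1 library of each genotype and state, a difference between the genotypes in the response could not be tested.

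Markers of several cell types differed between the injury states. All 7 markers of epicardium and fibroblasts were higher at 3 dpa in both genotypes and summed to 2677 CPM in dusp6 mutant and 7651 CPM in WT hearts, against 420 and 328 CPM in dusp6 mutant and WT uninjured hearts. Most of the 3 dpa sums came from collagen genes. In dusp6 mutant and WT hearts, col1a1a had 1251 and 3488 CPM and col1a2 had 1035 and 3002 CPM. Both genes are also on the list of matrix proteins cleaved by ADAMTS proteases. All 6 macrophage markers were higher too, with sums of 226 and 227 CPM in dusp6 mutant and WT hearts at 3 dpa, against 65.7 and 55.7 CPM in dusp6 mutant and WT uninjured hearts. For neutrophils, 2 of 4 markers had separated groups with 3 dpa higher, against 28.0% of all genes tested. Their sums were 34.1 and 28.1 CPM in dusp6 mutant and WT hearts at 3 dpa, against 13.0 and 6.89 CPM in dusp6 mutant and WT uninjured hearts. All 3 cardiomyocyte markers found were lower, summing to 22301 and 11272 CPM in dusp6 mutant and WT hearts at 3 dpa, against 37334 and 36489 CPM in dusp6 mutant and WT uninjured hearts. All 3 erythrocyte markers found were higher, at 12727 and 21729 CPM in dusp6 mutant and WT hearts at 3 dpa, against 3588 and 4673 CPM in dusp6 mutant and WT uninjured hearts. The part of these shifts in the levels of the members was not tested, and in bulk RNA more cells of a type cannot be told apart from more RNA per cell.

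The genes that act with the members or on which they act were described from lists of known partners, chosen with earlier results of these data known. Inhibitors of metalloproteinases had 5 positive values among the 6 genes tested (median log2 fold change 1.097, against -0.00 over all genes). That median lies between timp4.1 (0.72) and timp4.2 (1.47), which had low levels. timp4.1 had 0.0867 and 0.301 CPM in dusp6 mutant and WT hearts at 3 dpa, against 0.0356 and 0.198 CPM uninjured. timp4.2 had 1.73 and 0.512 CPM, against 0.641 and 0.165 CPM, so its groups overlapped. timp2b, a tissue inhibitor of metalloproteinases, had 88.6 and 121 CPM in dusp6 mutant and WT hearts at 3 dpa, against 8.85 and 8.76 CPM in dusp6 mutant and WT uninjured hearts (log2 fold change 3.58 ± 0.26, adjusted p = 0.0674 by quasi-likelihood). timp2a had a log2 fold change of 1.53 ± 0.29, timp4.2 1.47 ± 0.92 and reck, a membrane-bound inhibitor, 0.18 ± 0.22. DESeq2 called 2 of the 6 higher and 0 lower, and the quasi-likelihood test 0 in either direction in this list and in each of the next 4. For comparison with each list, DESeq2 called 6.15% of all genes tested higher and 1.31% lower. The quasi-likelihood test called 0% of all genes, and 49.6% of all genes had a positive value.

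Matrix proteins that ADAMTS proteases cleave had 13 positive values among the 16 tested, with a median of 1.96, and DESeq2 called 7 higher and 0 lower. The log2 fold change was 3.62 ± 0.41 in fn1b and 5.78 ± 0.71 in fn1a, which encode fibronectin. It was 4.03 ± 0.63 in col1a1a and 3.84 ± 0.62 in col1a1b, genes of fibrillar collagen. The versican genes vcana and vcanb had 2.20 ± 0.87 and 1.1001 ± 0.63, whereas the aggrecan gene acana had -1.16 ± 0.85. Their adjusted p was 0.245, 0.386 and 0.496 by quasi-likelihood, and DESeq2 called none of them. In dusp6 mutant and WT hearts, vcana had 1.98 and 12.4 CPM at 3 dpa, against 1.58 and 1.54 CPM uninjured. vcanb had 10.5 and 34.4 CPM, against 7.51 and 13.4 CPM. acana had 1.42 and 2.23 CPM, against 1.21 and 6.93 CPM, so its direction differed between the genotypes. These values thus came mainly from the WT pair, with 1 library in each state. Proteins shed by ADAMs had 19 positive values among 33 with a median of 0.27, and DESeq2 called 1 higher, the tumour necrosis factor gene tnfb (log2 fold change 2.19 ± 0.36). The receptor genes notch1b and notch1a had -0.83 ± 0.24 and -0.63 ± 0.22 and epha2a had 0.87 ± 0.29. Partners and activators of ADAM proteases, such as tetraspanins, iRhom proteins and furin-type convertases, had 9 positive values among 17 with a median of 0.04, and DESeq2 called 0 in either direction. Of these, pcsk5b had -1.13 ± 0.28, tspan14 0.62 ± 0.20, frmd8 0.57 ± 0.19 and tspan5a -0.75 ± 0.26. Fibrillin microfibril genes and relatives of the ADAMTS-like genes had 9 positive values among 15 with a median of 0.25, and DESeq2 called 4 higher and 1 lower. loxl2a, a lysyl oxidase-like enzyme, had 4.16 ± 0.44, mfap5 1.24 ± 0.19, paplna 2.12 ± 0.40 and fbn2a, a fibrillin gene, -1.11 ± 0.21.

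At 7 dpa most of the members that were far higher at 3 dpa were much nearer to the uninjured level. The authors' table for 7 dpa holds the larger of the 2 group means in RPKM (a read count corrected for gene length and depth), which is the 7 dpa mean wherever it exceeds the uninjured mean. It did so for 24 of the 36 members, against 51.8% of all 25281 genes. In that share any gene at 0 RPKM in both groups counts as not above, whereas all members had reads. The 7 dpa values are the authors' means, without replicates or a test. The labels do not name the experiment of the 7 dpa libraries, so a difference between experiments cannot be told apart from time. RPKM also lacks the TMM scaling of the fits. At 3 dpa, 27 members had a mean RPKM above uninjured, whereas 24 had a positive log2 fold change in the fit. For adam17b the 3 dpa mean was 1.26 times the uninjured mean in RPKM, whereas the fitted log2 fold change was -0.01. Small rises in RPKM thus depend on the scale. adam8a had a mean of 0.426 RPKM in uninjured hearts, 26.4 RPKM at 3 dpa and 2.26 RPKM at 7 dpa, and adamtsl7 had 0.102, 4.55 and 0.778 RPKM at the same stages. adamts15b_1 had 0.215, 2.71 and 0.611 RPKM, adamts12 0.199, 2.46 and 0.435 RPKM, and adam28 0.0825, 1.15 and 0.206 RPKM in uninjured hearts, at 3 dpa and at 7 dpa. Each of these 5 thus lay between its uninjured and its 3 dpa mean. adam8b, at 7.68, 21.03 and 13.05 RPKM over the same stages, also lay between them. Of the 24 members, 19 were lower at 7 dpa than at 3 dpa and 5 were higher. The 5 were adamts1 (0.719, 1.18 and 1.65 RPKM), adamts5 (0.304, 0.573 and 0.689 RPKM), adamtsl2 (0.108, 0.314 and 0.400 RPKM), adam17b (2.47, 3.12 and 3.55 RPKM) and adam12 (2.061, 1.87 and 3.02 RPKM), with means in the order uninjured, 3 dpa and 7 dpa. For the other 12 members, among them adam9, adam10b, adam19b and adam23a, the 7 dpa mean did not exceed the uninjured mean.

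**Figure D3:**
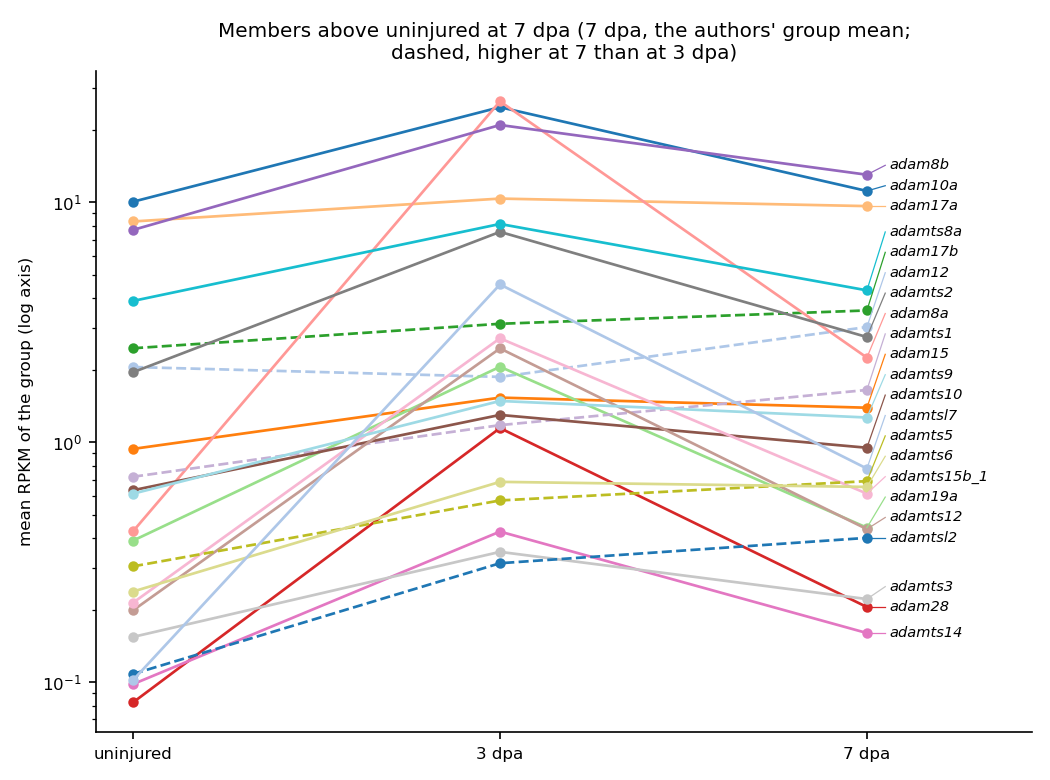
Mean RPKM (vertical log axis) in uninjured hearts, at 3 dpa and at 7 dpa (horizontal axis) for 22 of the 24 members whose 7 dpa mean exceeded the uninjured mean, leaving out 2 with under 0.3 RPKM at 3 dpa. Points are group means, the 7 dpa ones as given by the authors, and dashed lines mark the 5 members that were higher at 7 dpa than at 3 dpa. The steepest peak is that of adam8a, at 0.426, 26.4 and 2.26 RPKM.

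In foxm1 mutant hearts at 3 dpa the members were close to their WT levels, and none was called by the quasi-likelihood test. Several matrix-cleaving ADAMTS genes had negative values, some of which rested on WT libraries 2 and 3. Of the 36 members, 34 passed the filter on low counts (adamts13 and adamts18 did not). For genotype the adjusted p was not to exceed 0.05, with the same size of change. By edgeR's quasi-likelihood test 0 of them were called, when 0% of the 17618 genes tested were called higher and 0.0114% lower. DESeq2 and the likelihood ratio test also called 0 members, with 0.369% and 0.403% of all genes called higher and 0.295% lower by each. A log2 fold change of at least 0.59 was found in 0 members and of at most -0.59 in 2 (adamts1 and adamts15b_1), against 4.09% and 3.82% of all genes. At an unadjusted p under 0.05, 4 members were lower (adamts1, adamts15b_1, adamts2 and adamtsl5) and 0 higher, against 2.88% and 2.75% of all genes. In 3 members (adamts2, adamts17 and adamtsl5) all mutant libraries lay below all WT libraries and in 0 above, against 4.38% and 4.85% of all genes. The median log2 fold change, foxm1 mutant over WT, was -0.09 over the members and -0.00 over all genes, and 10 members had a positive value, against 49.9% of all genes.

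All 7 genes of the versican and aggrecan class had a negative value, with a median of -0.46. The genotypes were separated in 0 of the 7, against 4.85% of all genes with mutants higher and 4.38% with mutants lower. Of all genes tested, 49.9% had a positive value and the median was -0.00. adamts1, a secreted protease induced by inflammation in mammals, had 5.10, 3.54 and 5.99 CPM in mutant libraries 2, 3 and 4, against 14.9, 16.9 and 5.71 CPM in WT libraries 2, 3 and 4, a log2 fold change of -1.35 ± 0.39 (adjusted p = 0.628 by quasi-likelihood and 0.0615 by DESeq2). WT libraries 2 and 3 were high and WT library 4 was within the mutant range. The same held for adamts15b_1, with 23.6, 19.6 and 16.1 CPM in the mutant libraries, against 43.0, 43.9 and 17.3 CPM in the WT libraries (log2 fold change -0.81 ± 0.33, adjusted p = 0.854 by quasi-likelihood). Its neighbour adamts15b_2 had 17.3, 17.7 and 15.1 CPM in the mutant libraries, against 30.6, 28.2 and 12.1 CPM in the WT libraries (log2 fold change -0.50 ± 0.31, adjusted p = 0.999 by quasi-likelihood). adamts8a was also highest in WT libraries 2 and 3, with 26.2, 16.4 and 22.2 CPM in the mutant libraries, against 37.6, 34.3 and 17.1 CPM in the WT libraries. Its own neighbour adamts15a did not separate these libraries, at 68.8, 55.8 and 50.8 CPM in the mutant libraries, against 58.8, 63.1 and 61.5 CPM in the WT libraries.

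These 4 values rest on WT libraries 2 and 3, the libraries that stood apart in fkbp5. Leaving both out, a choice made after seeing the data, keeps WT library 4 alone against the mutant libraries. The log2 fold changes were then -0.23 for adamts1, 0.18 for adamts15b_1, 0.46 for adamts15b_2 and 0.33 for adamts8a. Without WT library 4 instead, adamts1 and adamts15b_1 were called lower (log2 fold changes -1.70 and -1.14, adjusted p = 0.0260 and 0.0386 by quasi-likelihood), when 0.690% of all genes were called lower. The part of what sets WT libraries 2 and 3 apart in these differences was not tested.

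**Figure D4:**
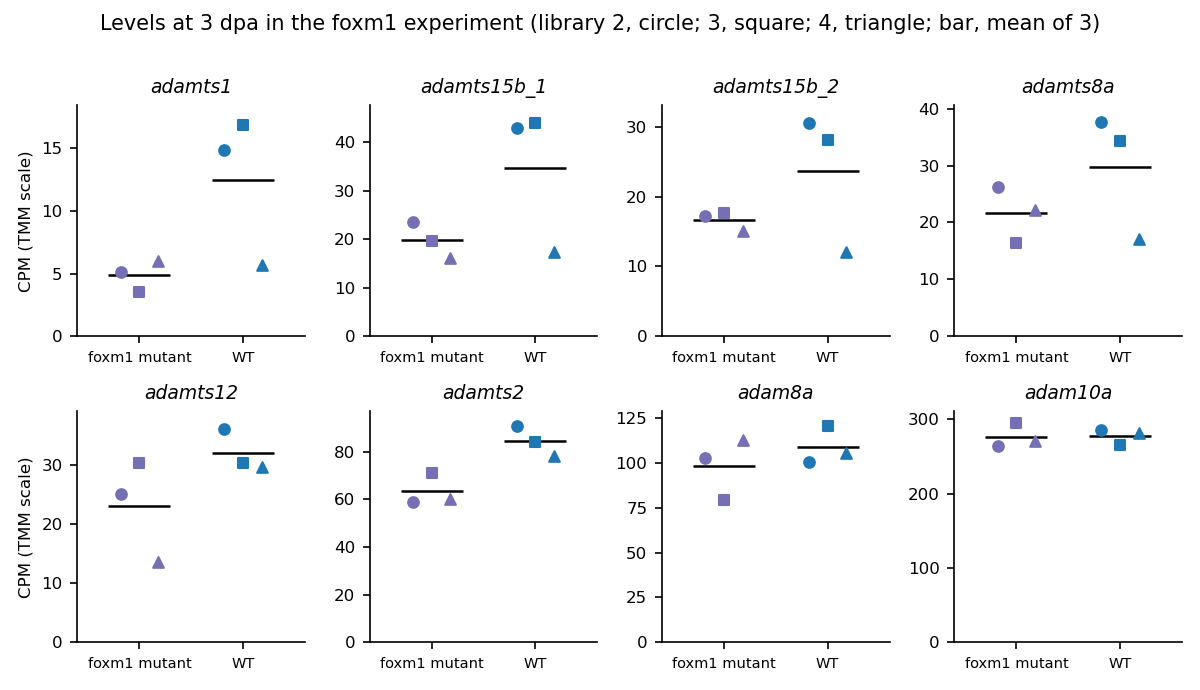
CPM on the TMM scale (vertical axis, from 0) in each library of the foxm1 experiment at 3 dpa for 8 members, with foxm1 mutant left of WT. Circles, squares and triangles are libraries 2, 3 and 4, and bars are means of 3. In adamts1 and adamts15b_1, WT libraries 2 and 3 (14.9 and 16.9 CPM, and 43.0 and 43.9 CPM) lie above WT library 4 and all mutants, whereas adamts2 is lower in all 3 mutants.

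adamts2 differed from these, since all WT libraries lay above all mutants: it had 58.9, 71.2 and 60.1 CPM in the mutant libraries, against 90.7, 83.9 and 78.4 CPM in the WT libraries. Its log2 fold change was -0.41 ± 0.12 (unadjusted p = 0.00995 and adjusted p = 0.637, edgeR quasi-likelihood), short of the size and the adjusted p asked for, and it was -0.32 with WT libraries 2 and 3 left out. adamts12 had 25.1, 30.3 and 13.7 CPM in the mutant libraries, against 36.04, 30.3 and 29.7 CPM in the WT libraries (log2 fold change -0.48 ± 0.26), with mutant library 4 the lowest. adamtsl5 had 25.3, 26.9 and 22.2 CPM in the mutant libraries, against 29.8, 29.7 and 32.98 CPM in the WT libraries (log2 fold change -0.31 ± 0.12, adjusted p = 0.826 by quasi-likelihood).

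On the positive side no member reached a log2 fold change of 0.59. The 4 largest were adam22 with 0.32 ± 0.29, adam8b with 0.22 ± 0.14, adamtsl7 with 0.20 ± 0.15 and adam11 with 0.12 ± 0.25, all with an adjusted p of 0.999 by quasi-likelihood. adam22 had 1.92, 3.22 and 1.91 CPM in the mutant libraries, against 1.80, 1.69 and 2.12 CPM in the WT libraries. adam8b had 113, 103 and 138 CPM in the mutant libraries, against 96.99, 94.9 and 113 CPM in the WT libraries. adamtsl7 had 19.3, 19.7 and 17.3 CPM in the mutant libraries, against 17.6, 17.8 and 13.6 CPM in the WT libraries, and adam11 had 2.08, 1.69 and 1.63 CPM in the mutant libraries, against 1.80, 1.58 and 1.58 CPM in the WT libraries. In each of these genes the genotypes overlapped.

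Of the members that were higher at 3 dpa than in uninjured hearts, adamts15b_1, adamts12 and adamts2 had the negative values given above, while adam8a, adam10a, adam28 and adam19a had log2 fold changes between -0.15 and -0.00 with overlapping genotypes. adam8a had 103, 79.5 and 113 CPM in mutant libraries 2, 3 and 4, against 100.3, 120.4 and 105 CPM in the WT libraries (log2 fold change -0.15 ± 0.15), and adam10a had 265, 295 and 271 CPM in the mutant libraries, against 285, 265 and 282 CPM in the WT libraries (log2 fold change -0.00 ± 0.10). adam28 and adam19a had log2 fold changes of -0.02 ± 0.22 and -0.02 ± 0.16. Marker sums in this experiment were 3237, 4327 and 3694 CPM for epicardium and fibroblasts in mutant hearts, against 4350, 4369 and 3938 CPM in WT hearts, and 541, 708 and 558 CPM for macrophages in mutant hearts, against 506, 608 and 458 CPM in WT hearts. The collagen genes col1a1a and col1a2 again made up most of the sums for epicardium and fibroblasts.

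The injury response of WT hearts could be set beside the same stage in the foxm1 experiment only as levels, since depth differed and the methods name more than 1 sequencing facility without saying which libraries went where. At 3 dpa the WT library of the injury experiment had 86.1 TPM of adam8a, against 52.5 to 62.6 TPM in the 3 WT libraries of the foxm1 experiment, and 12.3 against 9.77 to 12.9 TPM of adamtsl7. adam10a was at 61.7 against 58.9 to 65.4 TPM and adamts2 at 20.1 against 16.01 to 18.4 TPM. These levels all lay above those of the uninjured libraries of the injury experiment. The foxm1 experiment had no uninjured library, so a difference from uninjured hearts could not be examined within it. adam19b was at 11.4 TPM in the injury experiment and 2.24 to 3.99 TPM in the foxm1 experiment, and these differences between experiments were not tested.

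Between dusp6 mutant and WT hearts, with the injury state as a term in the fit, no member passed the test. This comparison uses the same 4 libraries as the comparison of injury states, so the 2 are not independent. The quasi-likelihood test called 0 of the 36 members at an adjusted p of at most 0.05, as it did 0% of the 20408 genes tested, and DESeq2 called 0 members, when it called 0.735% of all genes higher and 0.701% lower. The likelihood ratio test also called 0 members, against 0.843% of all genes higher and 1.02% lower. At an unadjusted p under 0.05, 1 member was higher (adamtsl5) and 1 lower (adamts15a), against 3.92% and 3.97% of all genes. Both dusp6 mutant libraries lay above both WT libraries in 7 members and below them in 3, against 15.2% and 14.7% of all genes. A log2 fold change of at least 0.59 was found in 4 members and of at most -0.59 in 5, against 12.4% of all genes in each direction. The median log2 fold change, dusp6 mutant over WT, was -0.06 over the members and -0.01 over all genes.

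adamtsl5 had 57.3 CPM at 3 dpa and 66.3 CPM uninjured in dusp6 mutants, against 25.7 CPM at 3 dpa and 48.0 CPM uninjured in WT, a log2 fold change of 0.81 ± 0.26 (adjusted p = 0.604 by quasi-likelihood). With all 10 libraries in 1 fit the spread comes from the foxm1 experiment alone. In that fit adamtsl5 was called higher (log2 fold change 0.83, adjusted p = 0.0231), when 1.86% of all genes were and 1.61% were called lower. Only 59.0% of its reads mapped uniquely. adamts15a had 25.8 CPM at 3 dpa and 29.9 CPM uninjured in dusp6 mutants, against 40.7 and 46.0 CPM at these stages in WT, a log2 fold change of -0.64 ± 0.20 (adjusted p = 0.593 by quasi-likelihood). It was of like size in both states, at -0.65 and -0.61.

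adam12 had 15.2 CPM at 3 dpa and 20.9 CPM uninjured in dusp6 mutants, against 11.6 and 12.6 CPM at these stages in WT (log2 fold change 0.56 ± 0.23). adam17b had 6.94 CPM at 3 dpa and 9.31 CPM uninjured in dusp6 mutants, against 14.2 and 11.95 CPM at these stages in WT (log2 fold change -0.70 ± 0.28). adamts15b_2 had a log2 fold change of 0.66 ± 0.31, which was 1.18 between the 3 dpa libraries and 0.14 between the uninjured libraries. adam8a, at -0.79 ± 0.55, changed direction with the state: it was -1.76 between the 3 dpa libraries and 0.37 between the uninjured libraries. The median over the members likewise was -0.31 at 3 dpa and 0.12 in uninjured hearts.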

How the data were processed

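RNA of pooled ventricles was sequenced by the study. Mapping to GRCz11 and counting were done by the authors with CLC Genomics Workbench. The authors deposited, for each of 10 libraries, a table of 25281 genes with read counts (all, uniquely mapped, exon and intron reads), RPKM and TPM. Deposited TPM and RPKM values were used for levels only. The authors' comparison tables also hold fold changes and p-values, which were not used. The larger group mean in RPKM of the 7 dpa table was used as the authors' value. Libraries at 7 dpa had no tables of their own and were not analysed here.

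All gene reads were tested on the whole table with edgeR 4.0.16 (quasi-likelihood F test, TMM factors, filterByExpr with a minimum count of 10), with Benjamini-Hochberg adjustment over all genes tested. The thresholds of the study were used for injury (adjusted p no higher than 0.01) and foxm1 genotype (0.05), with a log2 fold change of 0.59 or more in either direction. For dusp6 genotype the 0.05 of the foxm1 comparison was taken over, a choice made here. SE is the log2 fold change divided by the square root of F. Alternatives were DESeq2 1.42.0, the likelihood ratio test, RLE factors, no filter or a filter of 1 CPM, unique or exon reads, haemoglobin and mitochondrial genes left out, limma 3.58.1 trend on log2(TPM + 1) and log2(TPM + 0.1), all 10 libraries in 1 fit, blocks, other thresholds and each library left out. Fits were tested on simulated data. Since libraries hold pooled hearts, p-values describe library spread, which may be technical. The count depth was 17654534 to 67236702 reads, and a gene with few reads has a large counting error.

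Named members were those called in any comparison, the 10 most positive and 5 most negative at 3 dpa, 4 and 4 in foxm1 mutants, 3 and 3 in dusp6 mutants (each with a mean of at least 1 CPM) and the 5 with the highest mean TPM. Other members are given for completeness of their class. From the lists of partners, up to 4 genes with the lowest unadjusted p at 3 dpa were named. Versican and aggrecan genes were added, since a class of members is named after them. The members and lists were chosen with earlier results of these data known. Gene symbols of the reference table were matched by Ensembl ID for 36 of 36 members, and no sequences were used here.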

Additional observations from a re-analysis of the deposited data

Results flagged for a closer look

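In 3 members the log2 fold change at 3 dpa had opposite signs in dusp6 mutant and WT hearts, against 27.5% of all genes tested. The difference was not tested, since each genotype had 1 library in each state. adamts15b_2 had 0.45 in dusp6 mutant and -0.59 in WT hearts. adam17b had -0.42 in dusp6 mutant and 0.24 in WT hearts, and adam17a had -0.17 in dusp6 mutant and 0.13 in WT hearts.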

How the results depend on the processing

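At 3 dpa against uninjured, the count of members called higher was 0. It became 8 with DESeq2's Wald test, 8 with the likelihood ratio test and 6 at an adjusted p of at most 0.1. With all 10 libraries in 1 fit, whose spread comes from the foxm1 experiment alone, it became 9. It stayed at 0 at an adjusted p of at most 0.05. Leaving out each library gave 0 to 3, the 3 without the dusp6 mutant library at 3 dpa. Each such fit leaves 1 library in a state, assumed to vary like the 2 of the other state. The median log2 fold change of 0.57 was 0.66 with the filter of 1 CPM, 0.72 with exon reads, 0.43 on log2(TPM + 1) and 0.84 on log2(TPM + 0.1), and 0.45 to 0.64 with a library left out. The log2 fold change of adam22 reversed to 0.014 on log2(TPM + 1) and 0.068 on log2(TPM + 0.1). It lay between 0.108 and 0.169 TPM in these libraries, so an added 1 TPM holds its value near 0. An added 1 TPM also draws the values of other members with low TPM toward 0. In the foxm1 comparison, the count called lower was 0 to 2 and the median -0.180 to -0.092 with a library left out (the 2 without WT library 4), and the median was -0.18 on log2(TPM + 0.1). With WT libraries 2 and 3 both left out, which keeps WT library 4 alone, adamts15b_1 and adamts15b_2 reversed to 0.18 and 0.46. The labels give foxm1 and WT libraries of the same number the same experiment, so they may be pairs. Same-numbered libraries deviated together with correlations of 0.09, -0.04 and 0.13. These were not all over 0.1, and not every library correlated best with its own number, so the main test did not use pairs. With the experiment number as a block, 0 members were called and the median was -0.11. In the dusp6 comparison, adam8a reversed to 0.37 with either 3 dpa library left out (range -1.76 to 0.37). These values have no test, since no residual degrees of freedom remain. The cause of the reversal was not tested. RLE factors moved the median of all genes by less than 0.01. A comparison of 2 against 2 libraries limits what can be called, and genes with few reads, such as adam28 and adamtsl7 in uninjured hearts, have wide counting errors.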

Other observations

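A pair of genes with related names fell outside the rule because the tables write them in capitals. ADAM12 (1 of many) had 5.60 TPM in dusp6 mutant and 6.18 TPM in WT hearts at 3 dpa, against 6.42 and 4.75 TPM in dusp6 mutant and WT uninjured hearts. ADAMTSL4 had 14.3 TPM in dusp6 mutant and 10.3 TPM in WT hearts at 3 dpa, against 14.6 and 11.3 TPM in dusp6 mutant and WT uninjured hearts. In the foxm1 experiment ADAMTSL4 had 14.02, 20.2 and 10.9 TPM in mutant hearts and 14.98, 17.2 and 13.3 TPM in WT hearts, and ADAM12 (1 of many) had 3.36, 4.25 and 3.57 TPM in mutant hearts and 3.83, 2.88 and 5.44 TPM in WT hearts. In neither gene did the injury states or the foxm1 genotypes separate, whereas ADAMTSL4 was higher in both dusp6 mutant libraries than in both WT libraries of the injury experiment. These values were not tested.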
